A study of Mus musculus with 168 samples.

Results

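The comparison described here set the cortex of 2-month-old mice carrying a knocked-in Htt allele of nominally 92 CAG repeats (Q92) beside that of mice carrying one of nominally 20 repeats (Q20). Libraries were chosen by their titles, which name the allele, the age and the tissue, and gave 8 Q92 and 8 Q20 libraries, 16 of the 168 in the series, with 4 females and 4 males in each group. All 16 mice were heterozygous, so each also carried a mouse Htt allele without the knock-in, and all were on the C57BL/6 background. Wild-type mice of the same age (8 libraries) and Q92 and Q20 mice of 6 and 10 months (8 libraries each) are used below for reference. Q92 mice shared cages with Q92 mice, and Q20 mice with Q20 and wild-type mice, so that cage company and allele cannot be told apart in Q92 against Q20. The labels number the libraries of a group but do not say how they were drawn from animals or litters, and the p-values measure the spread between these libraries, which may in part be technical. In bulk tissue, fewer cells of a type and less RNA per cell cannot be told apart.

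Huntingtin, the product of Htt, is a large scaffold protein that takes part in vesicle transport and autophagy. An expanded CAG run in its first exon is translated into a long run of glutamines and causes Huntington's disease, in which projection neurons of the striatum and then neurons of the cortex are lost. Knock-in mice carry the expanded run in their own gene under its own promoter, and transcript changes in such mice are known to grow with repeat length and age.

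The reference sequence shows the CAG run of the mouse gene. In the GENCODE M21 transcript of Htt (GRCm38), the first 90 coding bases lie in exon 1 on the plus strand at chr5:34761907-34761996, printed below with the longest uninterrupted run of CAG codons in capitals. In this mouse reference the capitals hold 4 CAG codons, from codon 21, within a run of 7 glutamine codons from codon 18. The knock-in alleles are named for nominal lengths of 20 and 92 repeats. Their own sequences, with the bases that flank the repeat, were not analysed here and may differ from the mouse sequence printed.
Htt coding start: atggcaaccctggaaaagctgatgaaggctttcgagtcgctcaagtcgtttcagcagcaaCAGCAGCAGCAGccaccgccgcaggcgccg

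The estimated counts of genes summed to between 29402311 and 34457929 per Q20 library and between 30079416 and 40893046 per Q92 library. The excitatory neuron transporter Slc17a7 lay between 872 and 1060 CPM (counts scaled to a common library size) in the 16 libraries. The sex labels matched Xist, with a lowest female library of 969 CPM and a highest male one of 0.97, and Ddx3y, with a lowest male library of 54.8 and a highest female one of 0.13. Across the 56 libraries of 2 months, edgeR estimated a biological coefficient of variation of 0.115. One of the Q92 libraries, male 3, stood apart, with a median correlation of 0.9719 with the other libraries of that age against at least 0.9889 in the other 15. Another, Q92 female 4, differed from the other Q92 libraries in one group of genes, given below. Where a result moved with either library, that library's value or the result without it is given beside it.

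Htt showed no difference that passed. It stood at 206 ± 17.3 CPM (SD, n = 8) in Q20, with a lowest, median and highest library of 175, 209 and 231, and at 200 ± 38.1 in Q92, with 110, 212 and 227. The 110 CPM was that of Q92 male 3, and the other Q92 libraries lay at 193 CPM or higher, within the range of Q20. The difference, Q92 minus Q20, was -0.05 ± 0.11 on the log2 scale (estimate ± SE, edgeR quasi-likelihood test, adjusted p = 0.95), and 0.05 without Q92 male 3. In wild type Htt stood at 192 ± 27.5 CPM, with a lowest, median and highest library of 131, 202 and 218. The 131 CPM was that of wild-type female 2, whose median correlation was also low, at 0.9791. At 6 months Htt stood at 209 ± 11.7 in Q20 and 228 ± 10.3 in Q92. Total Htt counts do not separate the knocked-in allele from the mouse one.

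Few genes passed the test between Q92 and Q20 at 2 months, and most of those were lower in Q92. In a fit of all 56 libraries with genotype and sex, 5 of 17194 genes passed at an adjusted p under 0.05, or 0.0291%, with 1 higher and 4 lower in Q92. The gene that rose was Drc1, a subunit of the dynein regulatory complex of motile cilia. The genes that fell were Postn, which encodes the matrix protein periostin, Nyx, which encodes the synaptic protein nyctalopin, Rec8, which encodes a meiotic cohesin subunit, and the gene model 1700012B09Rik. At an unadjusted p under 0.05, 345 genes (2.01%) were higher and 596 (3.47%) were lower. In 12 genes, 0.0698% of those tested, no Q92 library overlapped a Q20 library, with Q92 below Q20 in 11 of them and above it in 1.

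Drc1 (ENSMUSG00000073102, GRCm38 chr5:30281388-30366695) rose 1.21-fold. It stood at 15.1 ± 0.526 CPM (SD, n = 8) in Q20, with a lowest, median and highest library of 14.4, 15 and 16, and at 18.3 ± 1.37 in Q92, with 15.4, 18.5 and 20.2. Only Q92 male 1, at 15.4 CPM, lay within the range of Q20, and the other 7 Q92 libraries lay at 17.7 or more. The difference was 0.28 ± 0.05 (log2, adjusted p = 0.024). Wild type stood at 15.3 ± 1.14 CPM, and Q20 minus wild type was -0.02 ± 0.05 (adjusted p = 0.98). Q92 minus wild type, which uses the same Q92 libraries, was 0.25 ± 0.05 (adjusted p = 0.21).

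The means of Drc1 in the other groups with a long allele also lay above that of Q20. At 2 months the mean was 17.4 ± 0.968 CPM in Q80, 18.2 ± 1.59 in Q111, 18 ± 1.23 in Q140 and 17.3 ± 1.4 in Q175 (SD, n = 8 each). The differences of these groups from the same Q20 libraries were 0.20, 0.27, 0.26 and 0.20 (log2, SE 0.05 each), with adjusted p of 0.11, 0.06, 0.076 and 0.4. In other mice, of 6 months, Drc1 stood at 15.4 ± 0.748 CPM in Q20 and 17.4 ± 1.5 in Q92, a difference of 0.17 ± 0.05 (adjusted p = 0.1). At 10 months its mean was 13.1 ± 0.641 CPM in Q20 and 15.8 ± 1.09 in Q92, a difference of 0.26 ± 0.06 (adjusted p = 0.35). The libraries of 10 months ranged from 12.3 to 13.9 CPM in Q20 and from 14.8 to 18.2 CPM in Q92. Not each long allele lay above Q20 at that age, since the mean of Q175 was 13 ± 1.57 CPM. No change of the difference with age passed for Drc1 (-0.11 ± 0.07 from 2 to 6 months and -0.01 ± 0.07 from 2 to 10 months, adjusted p = 0.77 and 0.96). With only the 16 libraries of the comparison in the fit, the 2-month difference was 0.28 and did not pass (adjusted p = 0.14). It was 0.36 in females only (adjusted p = 0.048) and 0.20 in males only (adjusted p = 0.84), and the test of that difference between sexes did not pass (-0.16 ± 0.10, adjusted p = 1).

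Drc1 starts 4.48 Mb before Htt on chromosome 5. Of 163 genes tested that start within 10 Mb of Htt, Drc1 was the 1 that passed, and 12 (7.36%) had an unadjusted p under 0.05 in either direction. Among all genes 941 of 17194 had one in either direction, with 2.01% higher and 3.47% lower. The neighbours of Drc1, Selenoi and Otof, had differences of -0.03 and -0.05 (log2). Xrcc2, a DNA repair gene whose start lies at -9.07 Mb from that of Htt, was the 1 neighbour whose libraries did not overlap between the groups, with Q92 below Q20 and a difference of -0.23 (adjusted p = 0.42). Over all genes, 0.0698% had groups that did not overlap. The labels do not say how much of chromosome 5 was carried along with each knocked-in allele, and its part in these differences was not tested.

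**Figure D1:**
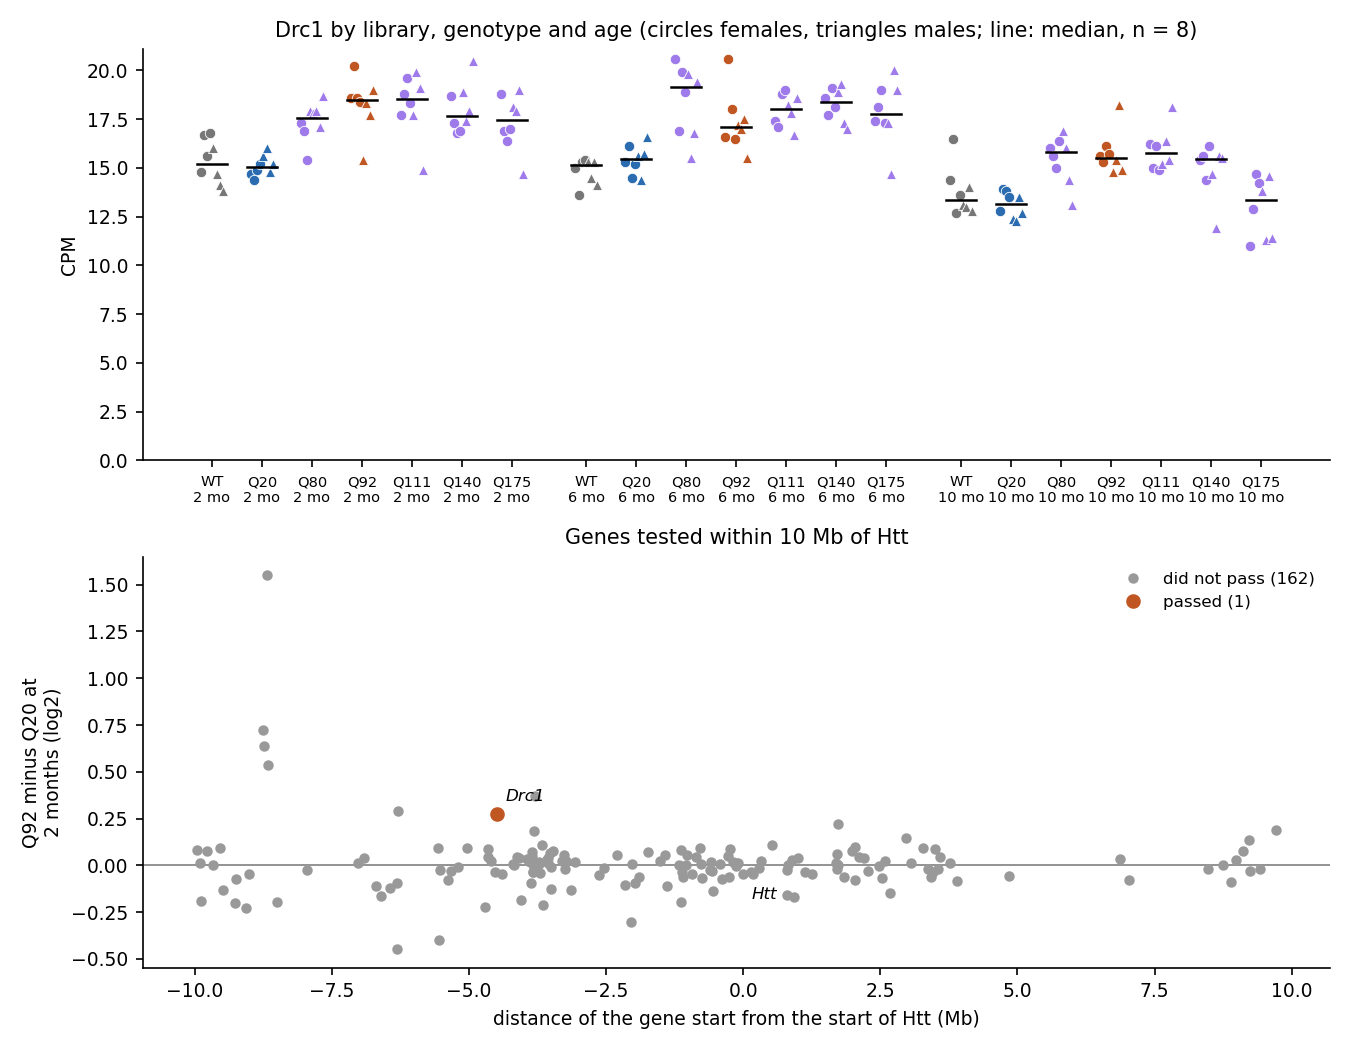
The upper plot shows Drc1 in CPM in each library, by genotype and age, with a line at the median of 8 libraries, females as circles and males as triangles. The lower plot shows the log2 difference, Q92 minus Q20 at 2 months, of the 163 genes tested within 10 Mb of Htt against the distance of their starts from that of Htt. Drc1 medians of the long alleles at 2 months lay above those of Q20 and wild type, and Drc1 is the 1 gene in the window that passed.

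The 4 genes that fell were expressed at low levels. Postn (ENSMUSG00000027750, chr3:54361109-54391037) stood at 4.78 ± 0.767 CPM in Q20 (lowest 3.2, median 4.96, highest 5.55) and 3.08 ± 0.733 in Q92 (2.21, 2.95 and 4.27), a difference of -0.64 ± 0.13 (adjusted p = 0.028). The groups overlapped, with Q20 male 3, at 3.2 CPM, within the range of Q92. Nyx (ENSMUSG00000051228, chrX:13466110-13489313) stood at 1.12 ± 0.103 CPM in Q20 (0.969, 1.12 and 1.27) and 0.679 ± 0.148 in Q92 (0.509, 0.683 and 0.911), with no overlap between the groups and a difference of -0.72 ± 0.14 (adjusted p = 0.028). Rec8 (ENSMUSG00000002324, chr14:55618037-55625395) stood at 5.71 ± 1.15 CPM in Q20 (3.93, 5.9 and 7.71) and 3.66 ± 0.66 in Q92 (2.76, 3.41 and 4.59), a difference of -0.65 ± 0.13 (adjusted p = 0.028). Of the Q20 libraries, male 1 (3.93 CPM) and female 4 (4.57 CPM) lay within the range of Q92. The calls of these genes were not stable. With only the 16 libraries in the fit, the adjusted p was 0.14 for Postn, 0.14 for Nyx and 0.2 for Rec8, at nearly the same differences. Without Q92 male 3 the differences were -0.59, -0.66 and -0.63, with adjusted p of 0.11, 0.15 and 0.11.

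1700012B09Rik (ENSMUSG00000031927, chr9:14756587-14771030), a protein-coding gene model, had the smallest p of all. It stood at 0.39 ± 0.104 CPM in Q20 (0.235, 0.393 and 0.553) and 0.103 ± 0.0594 in Q92 (0.0589, 0.0753 and 0.204). The groups did not overlap, and the fitted difference was -1.86 ± 0.33 (log2, adjusted p = 0.012). This rests on 8 to 18 counts per Q20 library and 2 to 8 per Q92 library, so that counting error is a large part of each value.

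In these 4 genes the mean of wild type lay between those of Q20 and Q92. Wild type stood at 3.98 ± 0.838 CPM for Postn, 0.849 ± 0.229 for Nyx, 4.62 ± 1.14 for Rec8 and 0.235 ± 0.0767 for 1700012B09Rik (SD, n = 8). The differences of Q92 from wild type were -0.37, -0.33, -0.34 and -1.15 (log2), and those of Q20 from wild type were 0.27, 0.39, 0.31 and 0.71. None of these passed, and no gene at all passed in either comparison with wild type (645 and 530 genes at an unadjusted p under 0.05, and 4 and 1 by DESeq2). These comparisons share the Q92 or the Q20 libraries with the main one. The means of the other long alleles also lay below Q20, in comparisons that share its libraries. Nyx stood at 0.642 ± 0.104 CPM in Q80, a difference of -0.82 ± 0.15 that passed (adjusted p = 0.0056), and at 0.775 ± 0.179 in Q111, 0.841 ± 0.175 in Q140 and 0.911 ± 0.118 in Q175. Rec8 stood at 4.32 ± 0.786 CPM in Q80, 4.45 ± 0.813 in Q111, 3.81 ± 0.486 in Q140 and 3.85 ± 0.807 in Q175, and Postn at 3.66 ± 1.02, 3.94 ± 0.626, 3.82 ± 0.707 and 3.58 ± 0.685. Apart from Nyx in Q80, none of these differences from Q20 passed. Of the 7 genotypes at 2 months, Q20 had the highest mean in all 4 genes that fell.

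At the later ages, the differences of Postn, Nyx and Rec8 were closer to 0 and none passed. In the mice of 6 months, Q92 minus Q20 was -0.08 ± 0.15 for Postn, 0.01 ± 0.13 for Nyx and -0.15 ± 0.13 for Rec8. In the mice of 10 months it was -0.04 ± 0.11, 0.02 ± 0.16 and 0.11 ± 0.15. The change of the difference with age did not pass for any of them, with adjusted p of 0.28 to 0.73. For 1700012B09Rik, Q92 minus Q20 was -0.32 at 6 months (adjusted p = 0.82), against -1.86 at 2 months. That gene was not among those tested at 10 months. Levels also moved with age within Q20, where Postn stood at 3.4 ± 0.645 CPM at 6 months and 2.16 ± 0.4 at 10 months.

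The next genes by p did not pass. Cacng5, an auxiliary subunit of AMPA-type glutamate receptors, stood at 15.5 to 22.8 CPM in Q20 and at 8.44 to 11.8 in 7 of the Q92 libraries, with Q92 female 4 at 20.7 (-0.75 ± 0.16, adjusted p = 0.064). Patj, a scaffold of tight junctions, stood at 10.8 to 12.8 CPM in Q20 and 7.66 to 10.7 in Q92, with no overlap (-0.35 ± 0.08, adjusted p = 0.087). On the higher side, Mpped1, a metallophosphoesterase-domain gene, stood at 192 to 216 CPM in Q20 and 214 to 237 in Q92 (0.13 ± 0.03, adjusted p = 0.18). Psrc1, which binds spindle microtubules, had a difference of 0.23 ± 0.06. Pik3r6, a regulator of phosphoinositide 3-kinase gamma, had one of 0.23 ± 0.07, and Rspo2, a secreted enhancer of Wnt signalling, one of 0.31 ± 0.09 (adjusted p = 0.36 each).

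Markers of the olfactory bulb, which borders the frontal cortex, were low in 7 of the 8 Q92 libraries and not in the other. Eomes and Tbx21, T-box transcription factors of the bulb's mitral and tufted cells, and Cdhr1 and Doc2g, which those cells also express, were summed as a level of olfactory bulb RNA, a choice made after the values were seen. The sum ranged from 17.8 to 58.9 CPM in Q20 and stood at 9.49 to 12.3 CPM in 7 Q92 libraries and 56.5 CPM in Q92 female 4. Q20 had the highest median of the 7 genotypes at 2 months, 40.9 CPM, against 11.2 in Q92, 11.4 in Q80, 12.4 in Q175, 13.4 in Q111, 19.4 in wild type and 22.6 in Q140, so that a low level was not particular to Q92. Q175 had a like split, with 7 libraries at 10.4 to 13.3 CPM and 1 at 45.8. Apart from Q92 female 4, each Q92 library lay below each Q20 library. Eomes alone stood at 1.41 to 6.27 CPM in Q20, at 0.0287 to 0.307 in those 7 Q92 libraries and at 5.77 in Q92 female 4. In Q92 and Q20 mice of 6 months the sum ranged from 11.1 to 42.8 CPM and from 13.4 to 62.6 CPM.

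**Figure D2:**
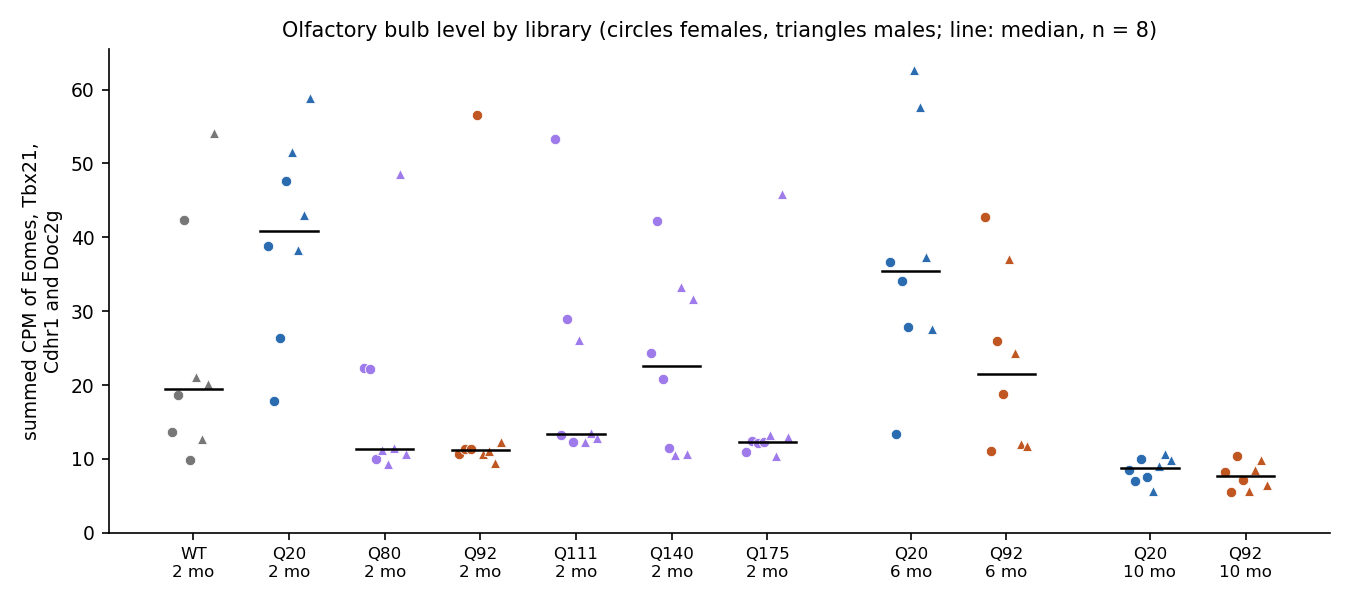
The summed CPM of Eomes, Tbx21, Cdhr1 and Doc2g in each library, for all genotypes at 2 months and for Q20 and Q92 at 6 and 10 months, with a line at the median of 8 libraries, females as circles and males as triangles. At 2 months 7 Q92 libraries lie at 9.49 to 12.3 CPM and Q92 female 4 at 56.5, while the Q20 libraries run from 17.8 to 58.9.

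The list of olfactory bulb and basal forebrain markers lay lower in Q92 as well. None of its 11 tested members passed, 0 of 11 had a difference above 0, where 49.7% of all genes did, and 9 were lower at an unadjusted p under 0.05, where 3.47% of all genes were. The median difference was -0.75 (log2). Members of this list and of those below may vary together, so such counts cannot be read against the shares of all genes. The summed level of the list was 119 to 161 CPM in Q20 and 84.4 to 155 CPM in Q92. Beside the bulb markers, the list holds markers of cholinergic neurons of the basal forebrain. Chat, the enzyme that makes acetylcholine, stood at 2.37 to 5.4 CPM in Q20 and 0.43 to 2.99 in Q92 (-0.75 ± 0.28, adjusted p = 0.61). Chat did not follow the split of the bulb markers, since Q92 female 4, at 1.85 CPM, lay below each Q20 library and Q92 female 3 and males 1, 3 and 4, at 2.79 to 2.99 CPM, lay within the range of Q20. Its lowest libraries were Q92 female 1 at 0.43 CPM and Q92 female 2 at 1.07 CPM. At 10 months both were lower than at 2 months, with a median Eomes of 0.0456 CPM in Q20 and 0.0433 in Q92, and a median Chat of 0.368 and 0.34.

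Without Q92 female 4 the count of genes that passed went from 5 to 54 of 17250 (0.313%), with 2 higher and 52 lower in Q92. The 5 genes that passed with all libraries were among the 54, and Mpped1 was the other higher one (0.14 ± 0.03, adjusted p = 0.03). Among the genes lower in Q92 were Sp8, a zinc-finger factor of bulb interneurons (-1.75 ± 0.32), and Th, the tyrosine hydroxylase of dopaminergic cells (-1.88 ± 0.41). Others were the calcium-binding proteins Scgn (-2.97 ± 0.61) and Calb2 (-0.96 ± 0.19), Omp, the marker protein of olfactory sensory neurons (-4.00 ± 0.94), and Lgr5, a receptor of R-spondins (-1.32 ± 0.30). The homeobox genes Meis2 (-0.33 ± 0.07), Pbx3 (-0.72 ± 0.15) and Dlx1 (-0.38 ± 0.08) fell as well, as did Cacng5 (-0.92 ± 0.15). In 49 of the 52 genes, Q92 female 4 lay at or above the lowest Q20 library. Only 4 of the 52 passed with that library in the fit, so its place in these genes follows in part from how they were chosen. These genes were chosen by their values in these libraries, and the named ones after those values were seen.

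Most of these genes moved with the olfactory bulb level in libraries of neither genotype, which entered the comparison only through the shared spread and the sex term. In the 40 libraries of 2 months from the other 5 genotypes, 107 of 17030 genes (0.628%) rose with the log2 of the level at an adjusted p under 0.05. Apart from Eomes, Cdhr1 and Doc2g, which define the level, 47 of the genes lower in Q92 were tested there, and 30 of them (63.8%) rose with it and 0 fell. Th rose by 0.98 ± 0.05 and Omp by 1.97 ± 0.13 on the log2 scale per log2 unit of the level, and Cacng5 by 0.34 ± 0.03. Those that did not pass there included Nyx (-0.01), Rec8 (0.00), Postn (0.11) and 1700012B09Rik (0.08), the transcription factor genes Zic1 (0.04) and Prdm12 (-0.06), and Patj (0.04). Drc1 had a slope of 0.00 in the same libraries.

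With the olfactory bulb level as a further term in the fit of 56 libraries, no gene passed by edgeR (457 at an unadjusted p under 0.05). The differences of the 5 genes were then 0.28 ± 0.06 for Drc1, -0.75 ± 0.17 for Nyx, -0.63 ± 0.15 for Rec8, -0.48 ± 0.14 for Postn and -1.61 ± 0.37 for 1700012B09Rik. Their adjusted p ranged from 0.36 to 1, and all 5 kept their sign. The level is itself lower in 7 of the 8 Q92 libraries, so that this term and the allele are partly the same contrast.

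**Figure D3:**
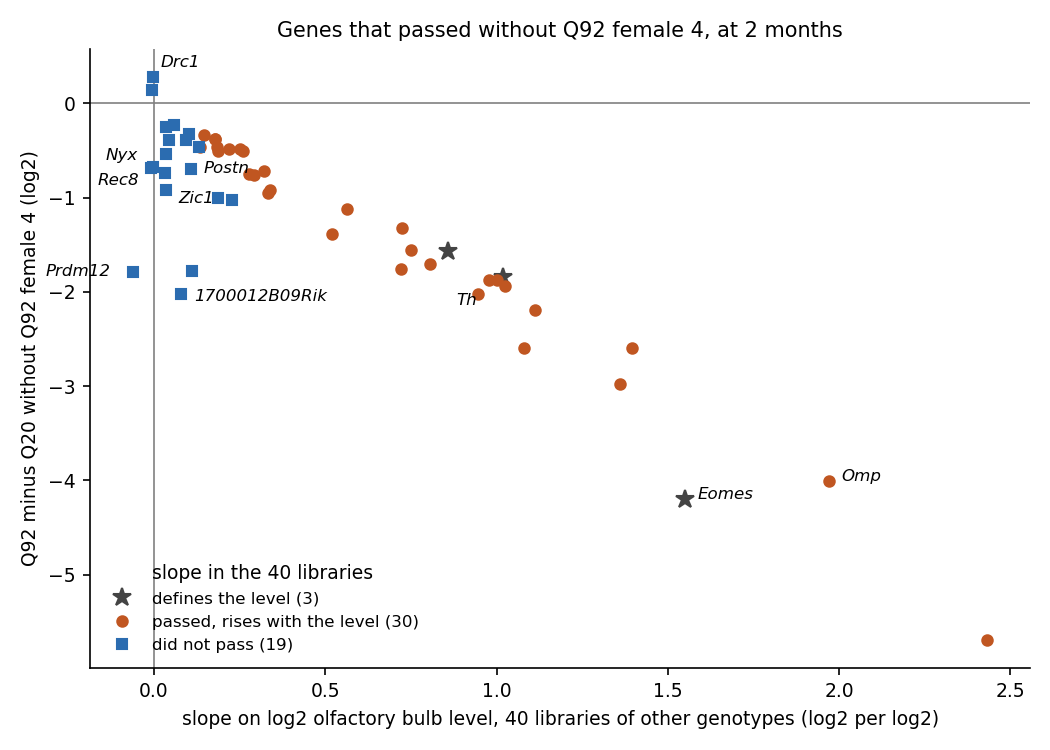
The genes that passed without Q92 female 4 and were tested in both fits, with the log2 difference Q92 minus Q20 without that library against the slope on the log2 olfactory bulb level in 40 libraries of other genotypes. Stars define the level, circles rose with it and squares did not pass. Genes with steep slopes, such as Omp and Eomes, have large negative differences, while Drc1, Nyx, Rec8 and 1700012B09Rik lie near a slope of 0.

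Of the 52 genes that were lower without Q92 female 4, 51 of 52 also had a negative difference between Q92 and Q20 at 6 months, in other mice, where 51.2% of all genes did. Their median difference there was -0.35, and none passed. At 10 months 30 of the 45 tested were negative, where 49.8% of all genes were, with a median of -0.05, and none passed. Many of the 52 genes move with the olfactory bulb level, so they are not independent. These counts therefore cannot be read against the shares of all genes. The median of that level at 6 months was 35.4 CPM in Q20 and 21.6 CPM in Q92. Between Q92 and Q20 at 6 months, 170 of 17611 genes (0.965%) passed by edgeR, with 142 higher and 28 lower in Q92. The Q92 libraries of that age also held more liver transcripts than those of Q20, as given below, and their part in this count was not tested. At 10 months 0 of 17219 genes (0%) passed by edgeR (893 at an unadjusted p under 0.05, and 0 by DESeq2).

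Zic1 and Prdm12 passed without Q92 female 4 but not with all libraries, and their slopes on the olfactory bulb level did not pass. Zic1, a zinc-finger factor of the septum and other midline forebrain, stood at 30.1 ± 4.18 CPM in Q20 (lowest 21.4) and at 13.1 to 19.4 in 7 Q92 libraries, with Q92 female 4 at 31.9. The difference was -0.78 ± 0.19 (adjusted p = 0.18), and -0.92 ± 0.19 without Q92 female 4 (adjusted p = 0.015). Prdm12 stood at 0.163 to 1.07 CPM in Q20 and 0.0861 to 0.638 in Q92, a difference of -1.55 ± 0.38 (adjusted p = 0.18). Without Q92 female 4 it was -1.79 ± 0.40 (adjusted p = 0.025). The 0.163 CPM was that of Q20 male 3, and at such low levels counting error is large. In wild type Zic1 ranged from 17.9 to 34.9 CPM.

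Markers of the striatum, which lies beneath the cortex and is the tissue most affected in Huntington's disease, lay lower in Q92, by little except in 1 library. None of the 19 tested passed, 0 of 19 had a difference above 0 (49.7% of all genes) and the median was -0.11. Their summed level was 1100 to 1420 CPM in Q20 and 733 to 1270 CPM in Q92, where 733 was Q92 female 1. In that library Drd2, the dopamine receptor of indirect-pathway neurons, stood at 0.89 CPM, against 4.2 to 6.27 in the other Q92 libraries and 4.99 to 9.01 in Q20. Drd1, the receptor of direct-pathway neurons, stood at 13.4 CPM there, against 22.2 to 27.9 in the other Q92 libraries. Without Q92 female 1 the median of the list was -0.05. The enkephalin precursor Penk (-0.17 ± 0.13) and the phosphodiesterase Pde10a (-0.20 ± 0.15), both striatal transcripts that fall in models of the disease, did not pass.

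Choroid plexus markers had a median difference of -0.66, with 0 of 14 tested above 0 (49.7% of all genes) and none that passed. Their summed level was 225 to 503 CPM in Q20 and 225 to 298 CPM in Q92. Ttr, the thyroid hormone carrier transthyretin, stood at 153 CPM in Q20 female 3 and 120 CPM in Q20 male 1, and between 4.73 and 52.1 in the other 14 libraries (-1.28 ± 1.02, adjusted p = 0.91). The transcription factor Otx2 (-1.08 ± 0.44), the chloride channel protein Clic6 (-0.65 ± 0.28) and the water channel Aqp1 (-1.08 ± 0.53) had unadjusted p of 0.017, 0.023 and 0.047. Aqp1 was split like the bulb markers, at 2.2 CPM in Q92 female 4 and 0.301 to 0.589 in the other Q92 libraries. In Q20 it ranged from 0.352 to 2.17 CPM. Without Q20 female 3 the median of the list was -0.43, and with the olfactory bulb level as a term it was -1.23.

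Markers of GABAergic neurons went both ways. None of the 22 interneuron markers passed and the median was -0.03. At an unadjusted p under 0.05, 2 were higher and 7 lower, where 2.01% and 3.47% of all genes were. The GABA-synthesising enzymes Gad1 (-0.19 ± 0.06) and Gad2 (-0.26 ± 0.08), the vesicular GABA transporter Slc32a1 (-0.22 ± 0.07), Calb2 (-0.74 ± 0.20) and the homeobox genes Dlx1 (-0.32 ± 0.08) and Dlx2 (-0.38 ± 0.12) lay lower in Q92, with adjusted p of 0.26 to 0.44. Gad2 stood at 210 to 230 CPM in Q20 and at 145 to 209 in 7 Q92 libraries, with Q92 female 4 at 216. Its difference without Q92 female 4 was -0.31 (adjusted p = 0.14). Q92 female 1, the library low in striatal markers, was the lowest Q92 library in Gad1 (310 CPM), Gad2 (145) and Slc32a1 (51.2). It was also the lowest in Calb2 (12.9) and Dlx2 (3.07), while in Dlx1 the lowest was Q92 male 3 (35.6). Crhbp, a binding protein of corticotropin-releasing hormone (0.20 ± 0.07), and the neuropeptide Vip (0.14 ± 0.06) lay higher. Their highest library was Q92 male 3, with 27.2 CPM of Crhbp and 48.9 of Vip, and without it the differences were 0.14 and 0.08 (adjusted p = 1 each). In the 40 libraries of other genotypes, Calb2 (slope 0.33), Dlx1 (0.18) and Gad1 (0.11) rose with the olfactory bulb level, while Dlx2 (0.15), Gad2 (0.05) and Slc32a1 (0.003) did not pass. With the level as a term in the fit of 56 libraries, the difference between Q92 and Q20 was -0.24 for Calb2, -0.05 for Dlx1, -0.13 for Dlx2, -0.03 for Gad1, -0.18 for Gad2 and -0.21 for Slc32a1 (adjusted p = 1 each), and the median of the list was 0.005.

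Markers of the cortical layers did not pass. Of 17 deep layer markers tested 5 were higher and 1 lower at an unadjusted p under 0.05, where 2.01% and 3.47% of all genes were, and the median was -0.005. The complexin Cplx3, a marker of subplate neurons, stood at 14.1 to 17.5 CPM in Q20 and 16.2 to 21.5 in Q92 (0.25 ± 0.08, adjusted p = 0.42). Fezf2, a factor that specifies subcortically projecting neurons, had a difference of 0.18 ± 0.08, and Hs3st4, a heparan sulfate sulfotransferase, one of 0.14 ± 0.06. Syt6, a synaptotagmin, stood at 28.6 to 36.5 CPM in Q20 and at 16.2 to 29.3 in 7 Q92 libraries, with Q92 female 4 at 33.9 (-0.40 ± 0.13, adjusted p = 0.42). Its difference was -0.49 without that library (adjusted p = 0.083) and -0.05 with the olfactory bulb level as a term (adjusted p = 1). Upper layer markers had a median of 0.01 over 14 genes.

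Genes of protein synthesis and respiration lay higher in Q92, and this rested on 1 library. The medians were 0.11 for 30 nuclear genes of the respiratory chain, 0.09 for 13 mitochondrially encoded transcripts and 0.10 for 35 cytosolic ribosomal protein genes. In these lists 30 of 30, 13 of 13 and 34 of 35 differences lay above 0 (49.7% of all genes), and none passed. Cox7c, a subunit of cytochrome c oxidase, stood at 124 CPM in Q92 male 3 and at 71 to 91.9 in the other 15 libraries. The complex I subunit gene Ndufb3 stood at 65.6 CPM there (36.9 to 45 elsewhere), and the ribosomal protein genes Rps18 and Rpl38 at 199 and 207 (108 to 133 and 101 to 127 elsewhere). Without Q92 male 3 the medians of these 3 lists were 0.005, -0.004 and 0. Chromatin and histone-modifying genes had a median of -0.07, with 3 of 27 above 0, and -0.01 without that library.

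Glial markers showed small shifts and none passed. Microglia markers had a median of 0.08, with 18 of 20 above 0 (49.7% of all genes), and 0.02 without Q92 male 3. Tmem119, a marker of resident microglia, had a difference of 0.14 ± 0.07 (adjusted p = 0.91). Oligodendrocyte markers had a median of -0.07, with 0 of 20 above 0, and of -0.16 in females and 0.02 in males, a difference that was not tested for the list. Mobp, a myelin protein gene, stood at 623 to 864 CPM in Q20 and 613 to 737 in Q92 (-0.12 ± 0.06, adjusted p = 0.91). Astrocyte markers had a median of 0.02, with 12 of 16 above 0. Slc6a11, a GABA transporter of astrocytes, stood at 186 to 228 CPM in Q20 and 159 to 201 in Q92 (-0.20 ± 0.06, adjusted p = 0.42).

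Lists of signalling and disease genes had medians close to 0. The median was -0.01 for 33 genes of cAMP, calcium and opioid signalling, -0.03 for 22 glutamate receptor genes, -0.01 for 16 GABA receptor and transporter genes, -0.02 for 41 potassium channel genes and 0.01 for 24 immediate early genes. It was 0.02 for 25 cholesterol synthesis genes, 0.03 for 20 heat shock genes, -0.03 for 23 huntingtin-associated and autophagy genes and -0.04 for 15 genes of mismatch and repeat repair. Without Q92 male 3 some of these medians changed sign. They were then 0.03 for cAMP, calcium and opioid signalling, 0.005 for glutamate receptors and 0.01 for GABA receptors and transporters. Those of potassium channels and of repair genes were 0.02 and 0.003, and the other medians given here kept their sign. Bdnf, the neurotrophin that cortical neurons supply to the striatum, stood at 23.6 to 33.8 CPM in Q20 and 25.9 to 38.5 in Q92 (0.19 ± 0.10, adjusted p = 0.91). In all, 0 of the 699 tested members of the 37 lists passed, where 0.0291% of all genes did.

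**Figure D4:**
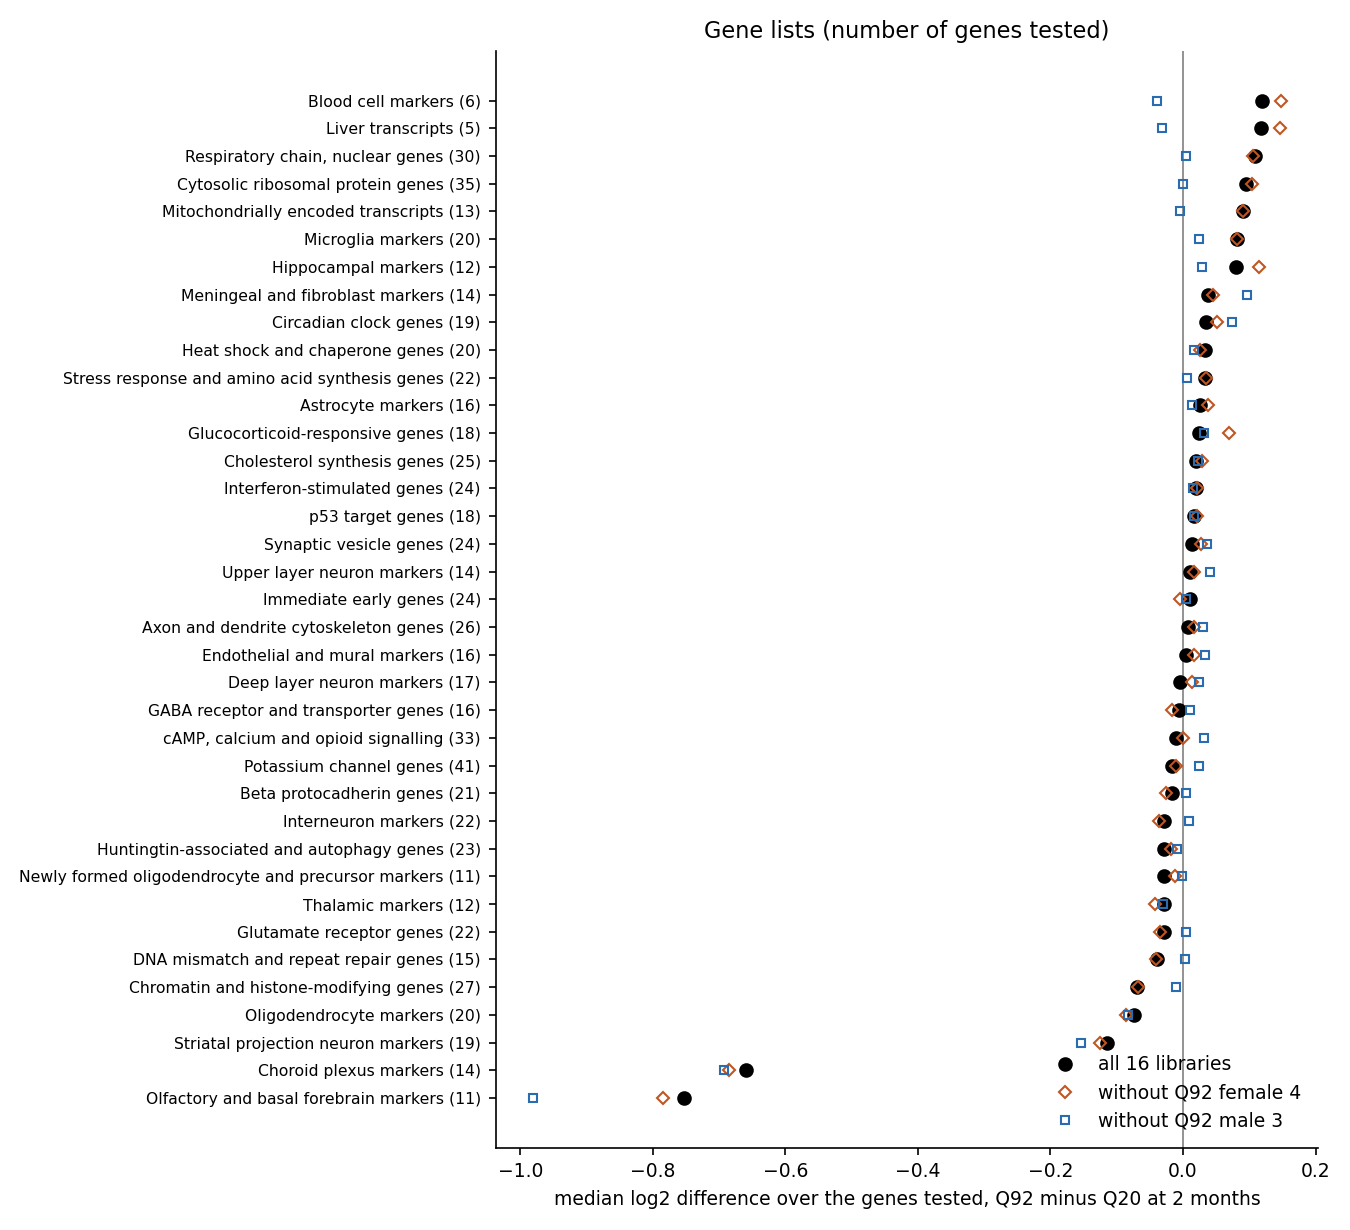
The median log2 difference, Q92 minus Q20 at 2 months, of the tested genes of each of the 37 lists, with all 16 libraries (black circles), without Q92 female 4 (open diamonds) and without Q92 male 3 (open squares). The olfactory and basal forebrain list (-0.75) and the choroid plexus list (-0.66) lie apart from the others, and the respiratory, mitochondrial and ribosomal lists move to about 0 without Q92 male 3.

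The difference between Q92 and Q20 was also set against sex and age. No gene passed for a change of the difference with sex by edgeR (363 at an unadjusted p under 0.05, and 1 by DESeq2). From 2 to 6 months, the difference changed in 22 of 17304 genes (0.127%), all of them upwards. Those with the smallest p were Cps1, a urea cycle enzyme (3.42 ± 0.37), the complement gene C3 (4.05 ± 0.47) and the apolipoprotein Apoa2 (3.001 ± 0.37), all made chiefly by the liver. Summed over 15 liver transcripts, the level at 2 months was 1.07 to 1.96 CPM in Q92 and 0.891 to 1.74 in Q20. At 6 months it was 25.9 to 156 CPM in Q92 and 1.02 to 10.6 in Q20. A high level was not particular to Q92. At 6 months each Q140 library stood at 33.3 CPM or more, and wild-type females 1 and 2 and male 1 at 32.3 or more. The other wild-type libraries and those of Q80, Q111 and Q175 stood at 8.38 CPM or less. At 2 months Q175 females 3 and 4 stood at 17.7 and 55.8 CPM, and wild-type female 1 higher than both. From 2 to 10 months no gene passed by edgeR (1366 at an unadjusted p under 0.05, and 5 by DESeq2).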

How the data were processed

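PolyA RNA of cortex was sequenced, and the authors deposited estimated counts per gene, some of them not whole numbers, and a second table of FPKM values, a unit per gene length and depth. Per the submitters' processing notes, CASAVA 1.8.2 was used. Not given in the sources used here are aligner, quantifier, genome build and annotation. Estimated counts were rounded. Of 39179 gene IDs, 37607 matched GENCODE M21 (GRCm38), which supplied symbols, positions and the printed sequence.

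The members and gene lists were chosen with earlier results of these data known. Genes were kept with filterByExpr (minimum count 10, minimum total 15, by genotype) and scaled by TMM. CPM use these scaled library sizes. Quasi-likelihood F tests of edgeR 4.0.16, two-sided, were fitted to the 56 libraries of 2 months with genotype and sex, with Benjamini-Hochberg adjustment over all genes and a threshold of 0.05. Standard errors are the absolute estimate over the root of its F. Fits of 6 and 10 months were made alike, and changes with age were tested in the 48 Q20 and Q92 libraries of all ages. Named genes were up to 12 passing genes each way by p, or the first 5 where fewer passed, Htt, passing genes within 10 Mb of it, up to 3 members of each list by p, and up to 3 genes each way of the tests between ages and sexes. Clone names were left out of the rule. The gene 1700012B09Rik, Xrcc2, Selenoi, Otof, the genes that passed without Q92 female 4 and some list members (Tbx21, Chat, Drd1, Penk, Pde10a, Gad1, Gad2, Slc32a1, Crhbp, Vip and Fezf2) were named after their values were seen.

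Alternatives were DESeq2 1.42.0, limma 3.58.1 on log2(FPKM + 0.1) and log2(FPKM + 1), other filters, samples and terms, and leaving out each library. Those on the olfactory bulb level and on libraries with a median correlation under 0.98 were chosen after seeing the data. Tests were checked on simulated counts. The 56 library pairs within the 2 groups differed beyond counting error (chi-square per degree of freedom at least 3.37). Same-numbered Q20 and Q92 libraries did not deviate together in every pair, so no pairing was used. R 4.3.3 and Python 3.11.15 were used.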

Additional observations from a re-analysis of the deposited data

Results flagged for a closer look

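Of 126 sets of 8 libraries examined (Q20 and Q92 for the olfactory bulb level and each named gene), 27 held a library whose gap to its nearest neighbour exceeded 0.526 of the range. Chance gives about 1 such set in 20, but the count cannot be read against that share, since the sets are not independent and many genes were named for how they moved without Q92 female 4. That library is the one in 16 of the sets.

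Q92 female 4 was the highest of its group in the olfactory bulb level (56.5 CPM, next 12.3) and in Eomes (5.77, next 0.307), Tbx21 (1.63, next 0.167), Cdhr1 (32, next 7.86) and Doc2g (17.1, next 5.34). It was also the highest in Sp8 (6.09), Th (8.9), Scgn (2.52), Omp (4.56), Lgr5 (11.7), Calb2 (36.9), Dlx1 (50.1), Dlx2 (6.25), Cacng5 (20.7), Zic1 (31.9) and Aqp1 (2.2 CPM).

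Q92 male 3 was the lowest in Htt (110 CPM, next 193). It was the highest in Cox7c (124), Ndufb3 (65.6), Rps18 (199), Rpl38 (207), the neuronal factor Neurod6 (82.7, next 57.5), Crhbp (27.2) and Vip (48.9 CPM). Q92 female 1 was the lowest in Drd2 (0.89 CPM, next 4.2) and Drd1 (13.4, next 22.2), and Q20 female 2 was the highest in Drd2 (9.01, next 6.62).

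The difference between Q92 and Q20 changed from 2 to 6 months in Cps1 (by 3.42), C3 (by 4.05) and Apoa2 (by 3.001 on the log2 scale), each tested as an interaction term with edgeR. The summed liver transcripts were also high in Q140 and in some wild-type libraries, as given above.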

How the results depend on the processing

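The 5 genes that passed became 14 with DESeq2 (3 higher, 11 lower), 3 without the sex term, 0 with only the 16 libraries, 11 with limma on log2(FPKM + 0.1), 9 without libraries with a median correlation under 0.99, 1 in females only, 0 in males only, 24 (all lower) with only the 5 Q20 and 5 Q92 libraries whose names share an L token, 3 without libraries with a median correlation under 0.98 and 0 with the olfactory bulb level as a covariate. Leaving out one library each gave 0 to 54 genes. The count was 0 without Q92 female 2 or Q92 male 4, 1 without Q20 female 1, Q20 female 2 or Q92 female 1, 2 without Q20 male 2 or Q92 male 3, 3 without Q20 female 3, Q20 male 1, Q20 male 3 or Q20 male 4, and 54 without Q92 female 4. With the replicate number as a block in the 16 libraries, 0 genes passed. Same-numbered pairs had correlations of their deviations from -0.068 to 0.4, and 4 of 16 libraries lay closest to their own number, so the numbers do not show a pairing. The cause of these changes was not tested.

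No setting changed the sign of the 5 genes. Drc1 passed in 19 of 31 settings (0.20 to 0.36), Postn in 11 of 31 (-0.69 to -0.29), Nyx in 12 of 31 (-0.80 to -0.11), Rec8 in 9 of 31 (-0.73 to -0.45) and 1700012B09Rik in 23 of 28 (-2.42 to -0.45). Htt, at -0.046, changed sign to 0.027 without libraries with a median correlation under 0.99, 0.056 in females only, 0.048 without those under 0.98 and 0.026 with the olfactory covariate, and passed in none. Leaving out one library each gave -0.078 to 0.048 for Htt, and the 0.048 was that without Q92 male 3. With that covariate, Tbx21 (0.27), Cdhr1 (0.037) and Doc2g (0.045), which define it, changed sign. With only the 16 libraries of an age, 98 genes passed at 6 months and 1 at 10 months. DESeq2 gave 48 genes for the change from 2 to 6 months, 5 for that from 2 to 10 months, 1 for that between sexes, 4 for Q92 against wild type and 1 for Q20 against wild type. Genes with few counts, such as 1700012B09Rik, are limited by depth. In that gene no Q92 library reached the minimum count of the filter, as given above.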
